A study of Mus musculus with 6 samples.

Results

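The genes described here are those of the collagen chains, of 5 small leucine-rich proteoglycans (Dcn, Lum, Ogn, Fmod and Bgn) and of 3 contractile proteins of smooth muscle (Acta2, Tagln and Myh11), measured in mouse retina at postnatal day 21 on 6 short-oligonucleotide arrays. They were picked by symbol, with earlier results of these data known, as every gene with a single symbol of the collagen form together with these 8 genes. This gave 50 genes, of which 42 were collagens, out of 18193 genes on the array, with 102 probe sets in all, and each gene was represented by its probe set with the highest mean log2 signal over the 6 arrays. Of the arrays, 3 were labelled ERRβ -/- knockout on a C57Bl/6 x Sv129 background and 3 wildtype on C57Bl/6, so genotype and strain background cannot be told apart. ERRβ, encoded by Esrrb, is an orphan nuclear receptor. The comparison asks which retinal transcripts differ in level between these groups. Every RNA came from 2 pooled retinas of animals kept on standard chow with equal hours of light and dark, and all samples were of mixed sex. The labels do not give the allele, and they do not say whether the pools were of different animals, so a p-value here measures sample-to-sample spread, which may be technical.

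Collagens are built of chains wound as a triple helix. Fibrillar collagens form the tensile fibrils of sclera, cornea and vessel walls, type IV collagens form the mesh of basement membranes, and collagens with interrupted helices sit on fibril surfaces or near basement membranes. Small leucine-rich proteoglycans bind collagen fibrils and control their width and spacing. In the retina itself little fibrillar collagen is made, and matrix lies mainly in the basement membranes of vessels, in the inner limiting membrane and in Bruch's membrane, next to the collagen of the vitreous. Smooth muscle actin, transgelin and smooth muscle myosin are made by the mural cells of arterioles, and in the eye also by the iris and ciliary muscles and by contractile fibroblasts. The tissue was checked by rod genes, with summed signals of 15 genes of 325454, 351375 and 57458 in labelled knockout replicates 1, 2 and 3 and 396282, 395612 and 59169 in wildtype replicates 1, 2 and 3. The stromal marker Dcn and the smooth muscle marker Acta2 were also measured, and both differed between the groups.

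The deposited intensities are on 2 scales. Replicates 1 and 2 of each group had been scaled to a trimmed mean near 500 and replicate 3 of each group near 150, so replicates 1 and 2 can be compared with each other and replicate 3 only with replicate 3. The medians of all probe sets were 114 to 118 in labelled knockout and 130.2 to 135 in wildtype arrays scaled near 500, and 61.5 and 57.3 in the pair scaled near 150. Log2 fold changes below are labelled knockout minus wildtype, each ± its SE (standard error, 3 arrays per group) from limma with this scaling batch as a block. Adjusted p-values are Benjamini-Hochberg values over all 27022 probe sets above a signal filter, a geometric mean of 54.5. Signals of different probe sets are not compared with each other. Esrrb signal was no lower under the knockout label. By its brightest probe set labelled knockout replicates 1, 2 and 3 had 3435, 4012 and 2397, against 2951, 2934 and 1771 in wildtype (0.37 ± 0.082, adjusted p = 0.0529). Whether its probes fall inside the deletion is not stated in these sources, so the arrays are called labelled knockout throughout.

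Of the 50 genes, 38 passed the signal filter, and of these 4 were higher in labelled knockout retina, none was lower and 34 did not pass the test at an adjusted p of 0.05. The 4 were Dcn (decorin), Acta2 (smooth muscle α-actin), Col5a3 (a chain of the fibrillar collagen V) and Col19a1 (a collagen with an interrupted helix). With a replicate block 2 of them, Acta2 and Dcn, passed, and without 1 array the number called was between 1 and 7. The 4 are 10.5% of the 38, beside 1.28% of 12536 genes called higher and 1.48% called lower on the same arrays (2.75% in either direction, and 2.25% of all probe sets). The median log2 fold change of the 38 was 0.12 (0.12 near 500 and 0.17 near 150), beside 0.02 over all 12536 genes in each case. The fold change was above 0 in 26 of the 38 (68.4%), beside 53.1% of all genes. In 9 of the 38 (23.7%) every labelled knockout array read higher than every wildtype array of its own scale, beside 19.8% of all genes, a share near the background, and in 2 (5.26%) every one read lower, beside 15.5% of all genes. None of the 50 genes lies on the chromosome of Esrrb. In the same arrays 15 of 18 lens genes and 4 of 15 pigment cell genes were also called higher in labelled knockout, with values given further on.

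**Figure D1:**
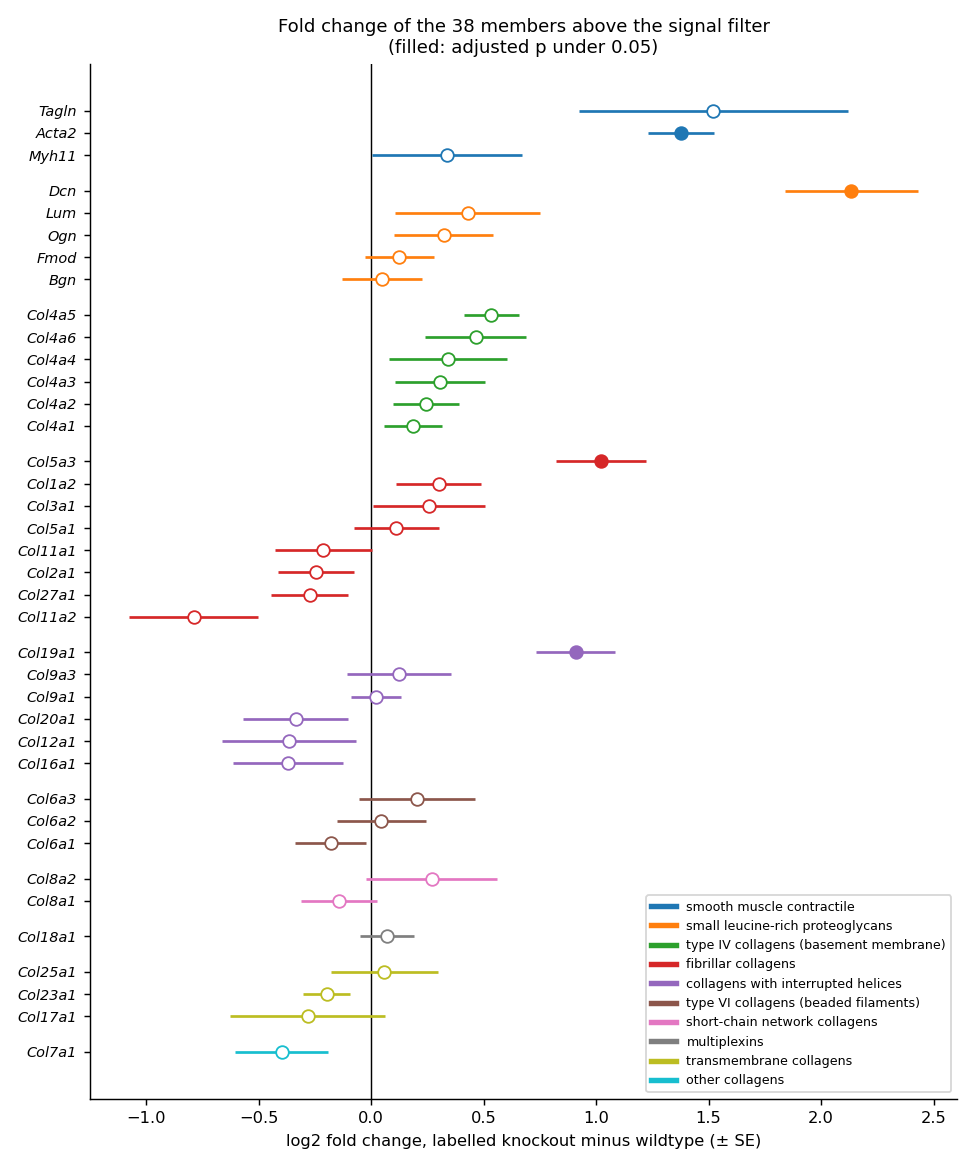
Log2 fold change (labelled knockout minus wildtype, horizontal axis) of the 38 genes above the signal filter, with bars of 1 SE (n = 3 arrays per group), grouped and coloured by protein family. The filled points are the 4 genes past the test, Dcn at 2.13, Acta2 at 1.38, Col5a3 at 1.02 and Col19a1 at 0.91, while most collagens lie within 0.5 of 0.

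Promoter sequences are shown for the 3 genes called higher that had a promoter window, which Dcn lacked. Those of Col4a1 and Col4a2 are shown because these chains are transcribed in opposite directions from starts that lie close together. Each window runs 5′ to 3′ on the gene's strand in build GRCm38.p6, from 250 bases before the start of transcription to 50 after it. Capitals mark GGGCGG, which Sp1-type factors can bind, and CCAAT, on either strand, so that CCGCCC and ATTGG are their reverse complements. The Acta2 window is chr19:34255324-34255623 (minus strand), that of Col5a3 chr9:20815018-20815317 (minus strand), that of Col19a1 chr1:24587388-24587687 (minus strand), that of Col4a1 chr8:11312777-11313076 (minus strand) and that of Col4a2 chr8:11312555-11312854 (plus strand).
Acta2: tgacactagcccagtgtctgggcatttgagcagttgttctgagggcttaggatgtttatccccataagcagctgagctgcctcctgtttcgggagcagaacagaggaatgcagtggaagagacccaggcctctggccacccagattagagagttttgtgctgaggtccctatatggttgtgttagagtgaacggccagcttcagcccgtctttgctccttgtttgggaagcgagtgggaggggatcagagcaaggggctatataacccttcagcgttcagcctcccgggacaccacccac
Col5a3: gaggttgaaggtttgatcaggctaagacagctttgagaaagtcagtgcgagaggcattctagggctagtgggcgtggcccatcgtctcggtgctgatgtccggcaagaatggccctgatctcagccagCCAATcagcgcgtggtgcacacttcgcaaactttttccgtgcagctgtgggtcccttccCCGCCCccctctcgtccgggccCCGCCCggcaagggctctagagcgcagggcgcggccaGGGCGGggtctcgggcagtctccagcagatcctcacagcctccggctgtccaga
Col19a1: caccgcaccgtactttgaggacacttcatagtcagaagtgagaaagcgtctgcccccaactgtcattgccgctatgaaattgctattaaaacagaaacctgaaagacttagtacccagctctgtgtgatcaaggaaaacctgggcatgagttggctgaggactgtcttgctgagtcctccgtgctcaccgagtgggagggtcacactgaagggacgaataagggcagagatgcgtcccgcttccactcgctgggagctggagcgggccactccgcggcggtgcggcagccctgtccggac
Col4a1: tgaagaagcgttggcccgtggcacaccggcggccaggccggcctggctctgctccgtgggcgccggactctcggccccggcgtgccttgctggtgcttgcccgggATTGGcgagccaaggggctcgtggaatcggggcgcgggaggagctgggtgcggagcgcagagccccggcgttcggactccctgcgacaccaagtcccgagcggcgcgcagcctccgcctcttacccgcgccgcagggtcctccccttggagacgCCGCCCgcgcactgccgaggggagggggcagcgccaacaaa
Col4a2: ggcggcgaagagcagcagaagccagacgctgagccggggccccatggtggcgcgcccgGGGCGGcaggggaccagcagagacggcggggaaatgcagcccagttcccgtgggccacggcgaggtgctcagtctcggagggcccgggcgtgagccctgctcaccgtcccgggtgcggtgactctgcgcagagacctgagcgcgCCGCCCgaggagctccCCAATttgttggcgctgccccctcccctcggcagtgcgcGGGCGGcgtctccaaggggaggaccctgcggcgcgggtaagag

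The Col5a3 window held GGGCGG at 3 places and CCAAT at 1. The Acta2 and Col19a1 windows held neither, so the genes called higher did not share these letters. The starts of Col4a1 and Col4a2 lie 21 bases apart on opposite strands, and their windows overlap by 78 bases. Col4a1 starts at base 11312826 on the minus strand and Col4a2 at base 11312805 on the plus strand. Each start therefore lies downstream of the other, and no base of the overlap lies before both starts. Of the 50 genes 37 had a window, with 40 windows in all. GGGCGG was found in 57.5% of these 40 windows and in 35.7% of the 32851 windows of all genes, CCAAT in 35.0% against 37.4%, and TATAAA in 15% against 13.6%. The CArG box is the element that serum response factor binds in smooth muscle genes. Its strict form, with only A or T between CC and GG, was found in 1 of the 40, that of Col6a4, and in 1.63% of all windows. The Acta2 window holds CCCTATATGG and CCTTGTTTGG, which each differ from the strict form by 1 letter and were not counted. Tagln and Myh11 had no window, so Acta2 was the only smooth muscle gene searched. Both strands were searched, and CCGCCC and CCAAT can share bases where they meet. A match is a string of letters and not a site.

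Among the proteoglycans, Dcn was higher in labelled knockout retina and the other 4 did not pass. Dcn read 627, 555 and 63.0 in labelled knockout replicates 1, 2 and 3, against 215, 157 and 7.70 in wildtype replicates 1, 2 and 3. At both scales the groups lay apart, and the wildtype array scaled near 150 was far under its array median of 57.3, so the size of the change there is approximate. The log2 fold change was 2.13 ± 0.30 (adjusted p = 0.00882), a 4.39-fold difference. It was 1.69 near 500 and 3.03 near 150. With 16 added to every signal it was 1.65 (adjusted p = 0.00227). Without labelled knockout replicate 1 or wildtype replicate 2 the call of Dcn was lost (adjusted p = 0.0616 and 0.0792), with log2 fold changes of 2.21 and 2.13. A second probe set of Dcn lay under the signal filter.

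None of the related proteoglycans passed the test, and Lum was the 1 whose groups lay apart at both scales. Lum (lumican, which spaces the fibrils of the cornea) read 161, 135 and 17.9 in labelled knockout and 104, 92.9 and 16.5 in wildtype replicates 1, 2 and 3, and its log2 fold change was 0.43 ± 0.32 (adjusted p = 0.49). Ogn (osteoglycin) read 406, 392 and 297 in labelled knockout and 368, 465 and 142 in wildtype replicates, a log2 fold change of 0.32 ± 0.22 (adjusted p = 0.445). Its groups overlapped in the arrays scaled near 500, where the difference was -0.05, and its difference came from the pair scaled near 150, where it was 1.07. The second probe set of Ogn had 0.31 ± 0.23. Fmod (fibromodulin) read 606, 754 and 82.8 in labelled knockout and 522, 659 and 85.1 in wildtype replicates, with 0.12 ± 0.15 on the log2 scale (adjusted p = 0.694), and Bgn (biglycan) read 299, 332 and 63.4 in labelled knockout and 340.2, 337 and 49.5 in wildtype replicates, a log2 fold change of 0.05 ± 0.18 (adjusted p = 0.908). The direction of Fmod and of Bgn differed between the 2 sets of arrays, with 0.21 near 500 and -0.04 near 150 for Fmod, and -0.10 and 0.36 for Bgn.

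**Figure D2:**
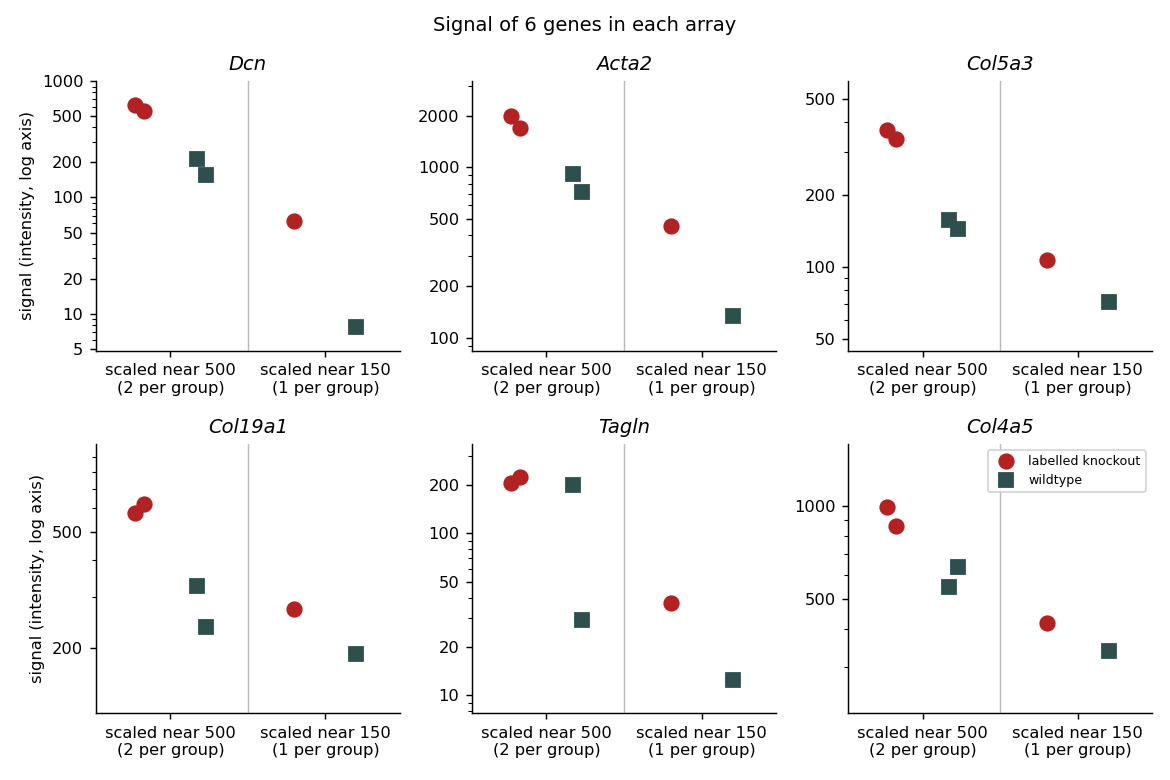
Signal (intensity, log axis) of 6 genes in each array, labelled knockout arrays as circles left of wildtype arrays as squares, with the arrays scaled near 500 (2 per group) left of the line and the pair scaled near 150 (1 per group) right of it. Dcn, Acta2, Col5a3, Col19a1 and Col4a5 lie apart at both scales, while the wildtype signals of Tagln, 198 and 29.0, span much of its panel.

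Of the smooth muscle genes, Acta2 was higher in labelled knockout retina. It read 1994, 1695 and 455 in labelled knockout replicates 1, 2 and 3, against 908, 719 and 135 in wildtype replicates 1, 2 and 3. Every labelled knockout array exceeded every wildtype array of its scale, and in all 6 arrays the signal was above the array median. The log2 fold change was 1.38 ± 0.15 (adjusted p = 0.00225), a 2.59-fold difference. It was 1.19 near 500 and 1.76 near 150. It passed the test without any single array, with adjusted p from 0.000368 to 0.0352, and not without the variance trend (adjusted p = 0.161) or the scaling block. The suffix of this probe set marks probes that can match several transcripts, and actin genes are close paralogs. The muscle actins Actg2 and Acta1, looked up for this reason after their values were seen, lay under the signal filter. Acta2's other 2 probe sets were also under it, and in the fit with no filter their log2 fold changes had opposite signs (0.30 ± 0.84 and -0.59 ± 0.98).

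Tagln (transgelin, an actin-binding protein of smooth muscle) read 203, 223 and 37.1 in labelled knockout replicates 1, 2 and 3, against 198, 29.0 and 12.4 in wildtype replicates 1, 2 and 3. All labelled knockout arrays were higher than wildtype at both scales, but 1 wildtype array lay close to them and the other far under its array median. Its log2 fold change of 1.52 ± 0.60 did not pass (adjusted p = 0.194), and it was 0.74 without wildtype replicate 2 and 2.32 without wildtype replicate 1. Myh11 (smooth muscle myosin heavy chain) read 138, 149 and 19.2 in labelled knockout and 121, 81.4 and 19.9 in wildtype replicates, a log2 fold change of 0.34 ± 0.33 (adjusted p = 0.609). Its groups were apart near 500 (0.53) and close to equal near 150 (-0.05). In bulk tissue, fewer or more cells of a type and less or more RNA per cell cannot be told apart.

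Other genes of smooth muscle, from a list of contractile proteins and their regulators, were measured beside these. None of the 15 above the filter passed in either direction, and their median log2 fold change was -0.03. It was above 0 in 7 of them and below 0 in 8, from -0.44 to 0.65. Of the 15, 6 were lower and 4 higher in every labelled knockout array of both scales, beside 15.5% and 19.8% of all genes. An unadjusted p under 0.05 in limma was found for 8 of the 15 and for 2673 of all 12536 genes. The 3 genes named next all had a fold change above 0. The smallest adjusted p-values were those of Hspb6 (0.31 ± 0.077, adjusted p = 0.0701), a small heat shock protein of muscle, Tpm1 (0.40 ± 0.11, adjusted p = 0.0945), a tropomyosin, and Myl9 (0.62 ± 0.20, adjusted p = 0.134), the regulatory light chain of smooth muscle myosin. Pericytes, the mural cells of capillaries, were read by 10 genes, of which none passed, with a median of 0.02. Their directions were split, with 5 fold changes above 0 and 5 below, from -0.65 to 0.62, and the 3 with the smallest adjusted p were all below. Rgs5, a pericyte marker, had a log2 fold change of -0.65 ± 0.15 (adjusted p = 0.0578), Vtn had -0.31 ± 0.092 (adjusted p = 0.108) and Abcc9 had -0.58 ± 0.17 (adjusted p = 0.11). The summed signal of the 10 pericyte genes was 15965, 17681 and 3769 in labelled knockout and 22866, 22665 and 3984 in wildtype replicates 1, 2 and 3, lower in each labelled knockout array. A sum weighs the brightest genes most. By gene, 3 of the 10 were lower and 3 higher in every labelled knockout array of both scales. None of 15 endothelial genes passed (median 0.03), with -0.25 for Slc2a1, the glucose transporter of the blood-retina barrier, 0.31 for the tight junction gene Cldn5 and -0.46 for the vascular growth factor receptor gene Flt1.

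Of the 11 fibrillar collagen chains, 8 passed the filter, and Col5a3 was higher while the other 7 did not pass. Col5a3 encodes a less widely made chain of collagen V, which starts collagen fibrils. It read 372, 339 and 107 in labelled knockout replicates 1, 2 and 3, against 157, 144 and 71.3 in wildtype replicates 1, 2 and 3. The groups were apart at both scales, and the difference was larger in the arrays scaled near 500 (1.24) than in the pair scaled near 150 (0.58). The log2 fold change was 1.02 ± 0.20 (adjusted p = 0.035), a 2.03-fold difference. This call lies close to the threshold. With a replicate block adjusted p was 0.0791, with no signal filter it was 0.0576, and it was 0.177, 0.185, 0.157 and 0.195 without labelled knockout replicates 1 and 2 and wildtype replicates 1 and 2. Its partner chain Col5a1 had 0.11 ± 0.19 on the log2 scale (adjusted p = 0.782), and Col5a2, the remaining chain, was under the filter.

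Collagen I and III, the main fibrillar collagens of sclera and vessel walls, were not called. Col1a2 had 0.30 ± 0.19 on the log2 scale (adjusted p = 0.403) and Col3a1 had 0.26 ± 0.25 (adjusted p = 0.604). Both were higher in the arrays scaled near 500 (0.53 and 0.57) and lower in the pair scaled near 150 (-0.15 and -0.38). Col1a1 was under the filter. The main fibrillar chain of vitreous and cartilage, Col2a1, read 388, 542 and 168 in labelled knockout and 605, 625 and 155 in wildtype replicates 1, 2 and 3, a log2 fold change of -0.24 ± 0.17 (adjusted p = 0.452). Its labelled knockout arrays were lower near 500 (-0.42) and higher near 150 (0.12). Col11a1 had -0.21 ± 0.21 (adjusted p = 0.619). Col11a2, with the largest negative fold change of the 38, read 137, 98.6 and 18.7 in labelled knockout and 222, 163 and 36.1 in wildtype replicates, lower in every labelled knockout array of both scales, a log2 fold change of -0.79 ± 0.29 that did not pass (adjusted p = 0.169). Col27a1 had -0.27 ± 0.17 (adjusted p = 0.403), and its second probe set, lower in every labelled knockout array of both scales, had -0.83 ± 0.27 (adjusted p = 0.134).

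Among the collagens with interrupted helices, Col19a1 was higher, and the other 5 of 6 above the filter did not pass. Col19a1 is made near basement membranes and, in mouse brain, by some neurons. It read 579.8, 623 and 271 in labelled knockout replicates 1, 2 and 3, against 327, 236 and 192 in wildtype replicates 1, 2 and 3. The groups were apart at both scales, with differences of 1.11 near 500 and 0.50 near 150. The log2 fold change was 0.91 ± 0.18 (adjusted p = 0.0342), a 1.88-fold difference. Its 2 other probe sets above the filter pointed the same way, with 0.59 ± 0.31 (adjusted p = 0.329) and 0.95 ± 0.38 (adjusted p = 0.206), and neither passed. This call too lies near the threshold. Adjusted p was 0.0757 with a replicate block, 0.09 over the mean of its 3 probe sets, and 0.157, 0.187, 0.131 and 0.162 without labelled knockout replicates 1 and 2 and wildtype replicates 1 and 2.

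Col9a1, a chain of the collagen that coats the fibrils of the vitreous, read 5971, 6088 and 1007 in labelled knockout and 4841, 6042 and 1197 in wildtype replicates 1, 2 and 3. Its log2 fold change was 0.02 ± 0.11 (adjusted p = 0.934), the differences near 500 and near 150 had opposite signs (0.16 and -0.25), and its sign turned with quantile normalization (-0.0067). Its partner Col9a3 had 0.12 ± 0.23 (adjusted p = 0.806). Col12a1, which links fibrils to other matrix, read 96.8, 181 and 36.0 in labelled knockout and 177, 143 and 53.3 in wildtype replicates, with groups that overlapped near 500 and a log2 fold change of -0.36 ± 0.30 (adjusted p = 0.528). Col16a1 read 128, 109.7 and 68.3 in labelled knockout and 188, 173 and 63.6 in wildtype replicates, a log2 fold change of -0.37 ± 0.24 (adjusted p = 0.43). Col20a1 read 166, 163 and 114 in labelled knockout and 287, 236 and 92.3 in wildtype replicates, a log2 fold change of -0.34 ± 0.23 (adjusted p = 0.451). For Col16a1 and Col20a1 the labelled knockout arrays were lower near 500 (-0.61 and -0.66) and higher near 150 (0.10 and 0.31).

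**Figure D3:**
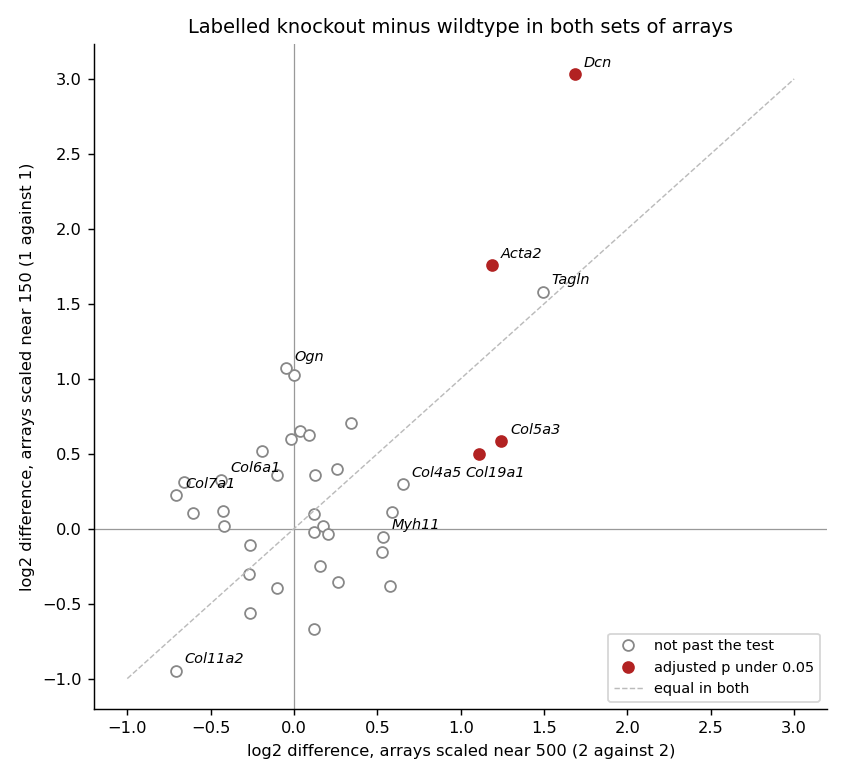
Log2 difference between labelled knockout and wildtype in the arrays scaled near 500 (2 against 2, horizontal axis) and in the pair scaled near 150 (1 against 1, vertical axis), for the 38 genes above the signal filter. The 4 filled points, past the test, lie in the upper right with Tagln, and Ogn and Col7a1 are examples of genes whose difference changed sign between the 2 sets.

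All 6 chains of type IV collagen passed the filter, and none passed the test, although each had a fold change above 0 by its brightest probe set. Their median was 0.32, with 0.15 near 500 and 0.62 near 150, and 3 of the 6 were higher in every labelled knockout array of both scales, beside 19.8% of all genes. Col4a1 and Col4a2 form the heterotrimer of nearly all basement membranes. Col4a1 read 699, 728 and 1409 in labelled knockout and 740.3, 708 and 932 in wildtype replicates 1, 2 and 3, with groups that overlapped near 500 and a log2 fold change of 0.19 ± 0.13 (adjusted p = 0.454). Col4a2 read 504, 566 and 515 in labelled knockout and 559, 483 and 327 in wildtype replicates, again overlapping near 500, with 0.24 ± 0.15 (adjusted p = 0.39). Both chains, whose windows printed above overlap by 78 bases, had differences close to 0 near 500 (-0.02 and 0.04) and of 0.60 and 0.65 near 150.

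The chains Col4a3, Col4a4 and Col4a5 form a second heterotrimer, found in kidney and in ocular basement membranes, and Col4a5 and Col4a6 lie head to head on the X chromosome. Col4a5 read 998, 862 and 418 in labelled knockout replicates 1, 2 and 3, against 548, 635 and 340.0 in wildtype replicates 1, 2 and 3. It was higher in every labelled knockout array of its scale, with 0.65 near 500 and 0.30 near 150. Its log2 fold change of 0.53 ± 0.12 missed the threshold narrowly (adjusted p = 0.0578), and its second probe set had 0.49 ± 0.15 (adjusted p = 0.116). The mean over both probe sets passed (0.51, adjusted p = 0.0476), and so did the arrays scaled near 500 alone (0.65, adjusted p = 0.00889). That last fit called 3687 of 27022 probe sets, against 609 in the fit with all arrays. The remaining chains were Col4a6 with 0.46 ± 0.22 (adjusted p = 0.281), Col4a4 with 0.34 ± 0.26 (adjusted p = 0.498) and Col4a3 with 0.30 ± 0.20 (adjusted p = 0.429). Other probe sets of these 3 did not keep one direction. That of Col4a6 had -0.38 ± 0.36, that of Col4a3 had -0.04 ± 0.26, and the 2 of Col4a4 had 0.75 ± 0.24 and -0.19 ± 0.31, so no direction is given for these genes.

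**Figure D4:**
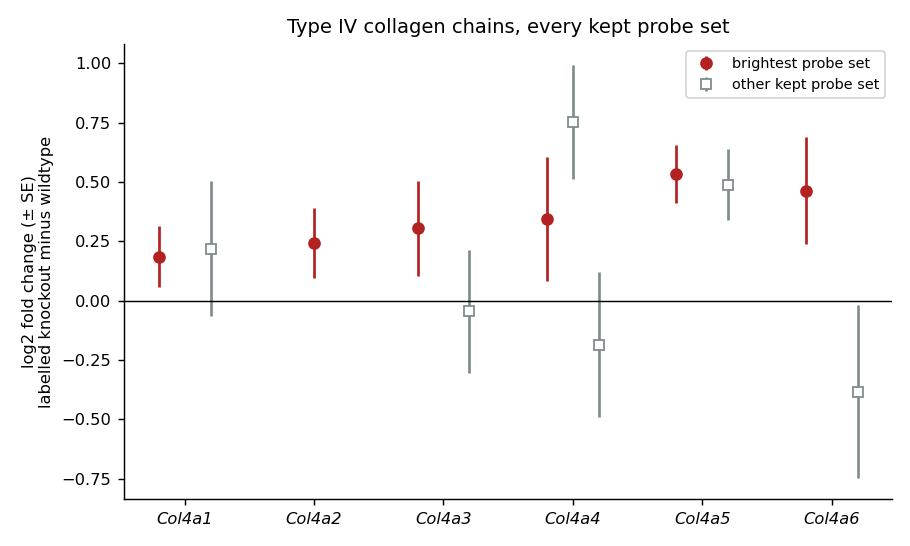
Log2 fold change (labelled knockout minus wildtype, vertical axis, bars of 1 SE, n = 3 arrays per group) of every probe set of the type IV collagen chains above the signal filter. The filled circles, the brightest probe set of each chain, run between 0.19 for Col4a1 and 0.53 for Col4a5, and open squares, the other probe sets, run between -0.38 and 0.75.

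Of the remaining collagen families no chain passed. Col6a1, a chain of the beaded filaments around cells, read 625, 673 and 249 in labelled knockout and 863, 891 and 199 in wildtype replicates 1, 2 and 3, lower in labelled knockout near 500 (-0.44) and higher near 150 (0.33), and its log2 fold change was -0.18 ± 0.16 (adjusted p = 0.554). Its partners Col6a2 and Col6a3 had 0.04 ± 0.20 and 0.20 ± 0.26. Col7a1, which forms the anchoring fibrils of epithelia, read 227, 232 and 149.7 in labelled knockout and 346, 406 and 128 in wildtype replicates, a log2 fold change of -0.40 ± 0.21 (adjusted p = 0.314) with opposite signs near 500 and near 150 (-0.71 and 0.22). In the arrays scaled near 500 alone Col6a1 and Col7a1 passed as lower (adjusted p = 0.031 and 0.0318). Passing was more common in that fit, which called 3687 of 27022 probe sets, against 609 in the fit with all arrays. Col8a1, a network collagen of vessel walls and of the corneal endothelium's membrane, read 806, 745 and 61.4 in labelled knockout and 707, 721 and 97.4 in wildtype replicates, a log2 fold change of -0.14 ± 0.17 (adjusted p = 0.679), while its second probe set had 0.21 ± 0.20. Its partner Col8a2 had 0.27 ± 0.29 (adjusted p = 0.648).

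Col18a1, the basement membrane collagen from which endostatin is cut, read 702, 803 and 180.2 in labelled knockout and 646, 741 and 183 in wildtype replicates 1, 2 and 3, with overlapping groups and a log2 fold change of 0.07 ± 0.12 (adjusted p = 0.781). Col23a1, a collagen anchored in the cell membrane, read 776, 766 and 294 in labelled knockout and 827, 826 and 387 in wildtype replicates. It was lower in every labelled knockout array of both scales, and its log2 fold change was -0.20 ± 0.11 (adjusted p = 0.324), while its 2 other probe sets had -0.05 and 0.19. The other membrane collagens were Col25a1 with 0.06 ± 0.24 and Col17a1 with -0.28 ± 0.34. The filter left out 12 collagen genes, whose signals ran from 2.72 to 161. The members nearest the filter were Col6a4 and Col9a2 under it, with geometric means of 51.4 and 50.9, and Col17a1 and Lum above it, with 60.1 and 62.9. In the fit with no filter these 12 had log2 fold changes from -2.12 to 1.35 and adjusted p of 0.24 or more, and the median over all 50 genes was 0.12, beside 0.0081 over all 18193 genes.

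The machinery around the collagens was read from lists of genes, and none of their members passed in either direction. Of 24 enzymes and chaperones that modify, fold or cross-link collagen, the median log2 fold change was -0.01. The prolyl hydroxylase P4ha1 had -0.43 ± 0.13 (adjusted p = 0.112), the collagen chaperone Serpinh1 had 0.50 ± 0.15 (adjusted p = 0.119) and the lysyl oxidase Loxl4 had 0.78 ± 0.30 (adjusted p = 0.183). Of 16 basement membrane partners the median was 0.01, with -0.81 for Frem2, 0.34 for Smoc1 and -0.43 for the perlecan gene Hspg2. Other matrix glycoproteins and elastic fibre genes, 22 of them, had a median of 0.11, with 0.26 ± 0.070 for the collagen-binding protein Sparc (adjusted p = 0.0903), 0.36 ± 0.11 for Igfbp7 and -0.36 ± 0.13 for Ccn2. Collagen receptors, 7 genes, had a median of -0.06, with 0.50 ± 0.14 for Cd44 (adjusted p = 0.0921). Matrix proteases and their inhibitors, 12 genes, had a median of -0.03, with -0.46 for Adamts1, 0.27 for Plat and 0.47 for Mmp2. TGF β ligands and receptors, which drive collagen synthesis in fibroblasts, had a median of 0.02 over 13 genes, with -0.23 for Tgfb2 (adjusted p = 0.166).

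Markers of the other tissues that a dissection of the retina can carry were read in the same arrays. On the list of fibroblasts and scleral stroma, 1 of 12 genes above the filter rose and none fell (median 0.12). It was Gpnmb (0.73 ± 0.12, adjusted p = 0.0218), a glycoprotein also made by pigment cells and macrophages, and it did not pass with a replicate block. The list's summed signal was 18301, 18728 and 3941 in labelled knockout and 17233, 17778 and 3742 in wildtype replicates 1, 2 and 3. Of 14 cornea and conjunctiva genes 4 were above the filter and none passed (median 0.06), and the defining corneal genes Krt12 and Kera were under it, with no value at 0. The summed signal of the 4 was 30070, 32376 and 3520.1 in labelled knockout and 26751, 26725 and 3696 in wildtype replicates 1, 2 and 3. This was higher in labelled knockout near 500 and lower near 150, and the sum includes Tkt and Pax6, which the retina makes too. Of 20 skeletal muscle genes 5 were above the filter and none passed (median 0.02), with summed signals of 931, 891 and 209.8 in labelled knockout and 1136, 1009 and 216 in wildtype replicates. Of 3 red blood cell genes above the filter none passed (median -0.71). Their summed signals were 289, 488 and 179 in labelled knockout and 539, 482 and 316 in wildtype replicates 1, 2 and 3.

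Markers of the lens differed between the groups. Of 18 lens genes above the filter 15 rose and none fell (median 3.60), and their summed signal was 71751, 61583 and 46526 in labelled knockout and 4696, 3626 and 8126 in wildtype replicates 1, 2 and 3. Of 15 genes of the retinal pigment epithelium and choroid 4 rose and none fell (median 0.55), with summed signals of 62314, 70142 and 4574 in labelled knockout and 54098, 55625 and 3661 in wildtype replicates. The 4 were Tyrp1, Pmel, Mlana and Dct, and the count was 0 without wildtype replicate 2 and 2 without labelled knockout replicate 1. On the list of ciliary body and iris 1 of 9 genes rose (median 0.07), Rdh10, with 0.58 ± 0.080 (adjusted p = 0.00882), and the summed signal was 40781, 45174 and 6789.8 in labelled knockout and 40423, 39596 and 6528 in wildtype replicates. No gene of 14 on the list of astrocytes and Müller glia passed (median 0.15). Of 15 rod genes 1 rose (Cngb1, not with a replicate block) and 1 fell (Abca4), with a median of -0.19. The signal ratio of the 3′ to the 5′ probe set of Actb, a sign of RNA quality, was 1.82, 1.66 and 1.67 in labelled knockout and 1.83, 1.89 and 2.32 in wildtype replicates, higher in each wildtype array than in the labelled knockout array of its number. The Gapdh ratio was 0.719 to 0.731 in labelled knockout and 0.712 to 0.779 in wildtype arrays. No marker on these lists had a signal of 0. The part of lens, pigment cells and RNA quality in the higher Dcn, Acta2, Col5a3 and Col19a1 was not tested.

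**Figure D5:**
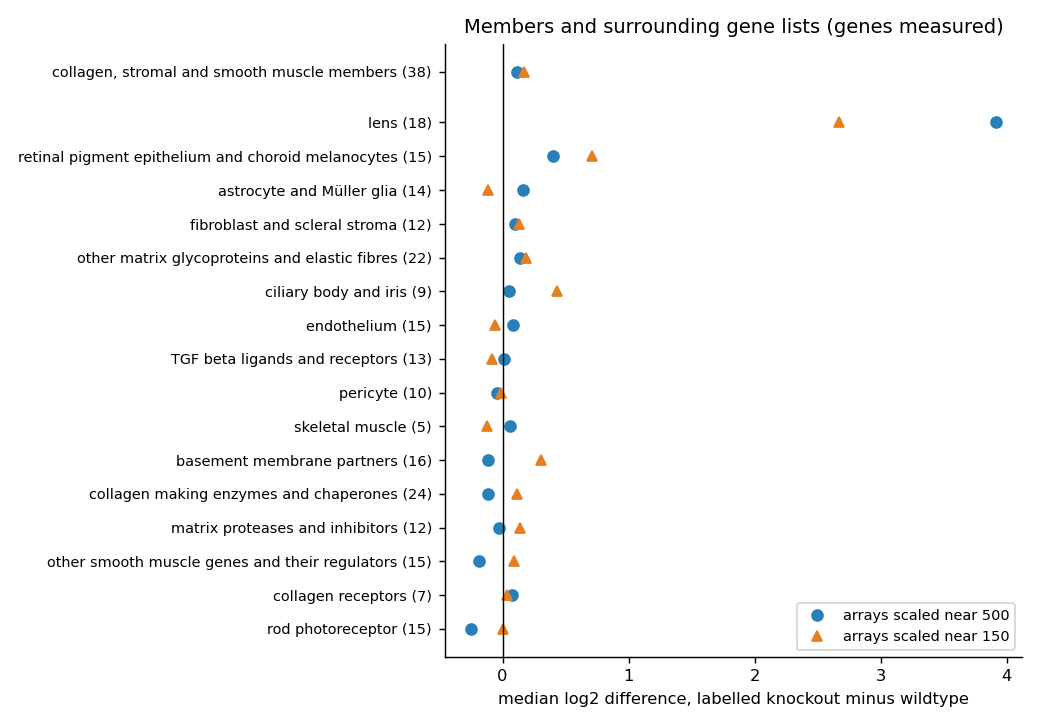
Median log2 difference (labelled knockout minus wildtype, horizontal axis) of the collagen, stromal and smooth muscle genes and of each surrounding list with at least 5 genes above the signal filter, in the arrays scaled near 500 (circles) and in the pair scaled near 150 (triangles), with the number of genes in brackets. The lens list, at 3.92 and 2.67, lies apart from the others, and the collagen, stromal and smooth muscle genes are at 0.12 and 0.17.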

How the data were processed

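RNA of mouse retina was hybridised after 1 round of oligo dT amplification, per the labels' protocols. The deposited table holds a linear intensity for each probe set in each array. GCOS 1.4 and MAS5 are named in the submitters' processing notes, with no role given. Of 45101 probe sets, 64 controls were left out. The table's trimmed means (2% at each end) were near 500 for 4 arrays and near 150 for 2.

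Signals were log2-transformed and not normalized again. Probe sets with a mean at or above the 40th percentile were tested in limma 3.58.1 (R 4.3.3), by lmFit and then eBayes with its trend option, two-sided, with the scaling batch as a block, with Benjamini-Hochberg adjustment over 27022 probe sets and a threshold of 0.05. The fit was tested on simulated data. Names came from the platform's annotation (34945 probe sets with 1 symbol, 932 with several, 9160 with none). Of 344 entries on 18 surrounding lists, 318 matched a gene.

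The members, lists, block and tests were chosen with earlier results of these data known. Values in every array are given for the 8 genes that are not collagens, for the 10 collagens of highest mean signal, for every member past the threshold and for the 5 largest changes each way. Of a list, members past the threshold, or with none up to 3 with the smallest adjusted p, could be named, and not all of them are. Deviations from the group means correlated at 0.57, 0.67 and 0.843 for replicate numbers 1, 2 and 3, each over 0.1, and crossed pairs of numbers 1 and 2 gave 0.627 and 0.607. The crossed values lie between those of numbers 1 and 2, and every deviation also holds the scaling difference that both groups share. These correlations therefore cannot show whether the numbers pair the samples. The fit reported has the scaling batch as its block and not the number, and the fit with a replicate block is given beside the results whose call it changes. Array data have no read depth, and 3 arrays per group limit the precision. Alternatives were no covariate, a replicate block, 2 other scalings, a pseudocount of 16, 2 other filters, no variance trend, a mean over a gene's probe sets, each scaling batch alone and each array left out.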

Additional observations from a re-analysis of the deposited data

How the results depend on the processing

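Of the calls, Acta2 passed in 14 of 16 tested alternatives, Dcn in 12, and Col5a3 and Col19a1 in 8 each, and all 4 kept a positive fold change in every one. These counts are not of independent alternatives. The arrays scaled near 500 alone and the fits without replicate 3 of either group gave the same fold changes, and all 4 passed in each of these fits. The 4 members called became 2 with a replicate block (Acta2 and Dcn), 0 with no covariate and 0 without the variance trend, and 7 in the arrays scaled near 500 alone (5 rose and 2 fell). They numbered 1 to 7 with each array left out (1 without labelled knockout replicate 1 or wildtype replicate 2, 7 without either replicate 3), where removing replicate 3 of either group left the other in a batch by itself. In limma with no covariate 0 of 27022 probe sets were called and 118 had an unadjusted p under 0.05, and without the trend 19 were called and 4452 had such a p. In the fit as reported 7 of the 38 members had such a p, beside 2673 of all 12536 genes. Without the trend adjusted p was 0.161 for Acta2, 0.167 for Dcn, 0.196 for Col5a3 and 0.237 for Col19a1. Calls among all surrounding lists, 23 as reported, were 0 with no covariate, 8 without the trend, 51 near 500 alone, and 15 to 49 with an array left out. The replicate block called 21 of them and 200 probe sets in all, against 609. That count of 609 was 284 after median centring, 405 with no filter, 3687 near 500 alone and 77 to 3710 with an array left out.

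The members' median of 0.12 was 0.22 after median centring, 0.083 over means of probe sets, 0.17 in the pair scaled near 150, and 0.12 to 0.17 with an array left out. The median of all probe sets was -0.018 as deposited and 0.078 after centring. Signs turned for members that did not pass. With quantile normalization Col9a1 had -0.0067, and over means of probe sets Col8a1 had 0.032. Near 500 alone Bgn had -0.10, Col4a1 -0.0203, Col8a1 0.12 and Ogn -0.0508. In the pair near 150 Col16a1 had 0.10, Col18a1 -0.0229, Col20a1 0.31, Col2a1 0.12, Col6a1 0.33, Col7a1 0.22, Col9a1 -0.25, Fmod -0.0384 and Myh11 -0.0525. With an array left out Bgn ran from -0.10 to 0.14, Col4a1 from -0.0203 to 0.26, Col8a1 from -0.25 to 0.12, Ogn from -0.0508 to 0.53 and Col9a1 from -0.11 to 0.16. The cause of these changes was not tested. Dim signals, such as Dcn and Tagln in wildtype replicate 3, limit the size of their fold changes.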
